A study of Mus musculus with 6 samples.

Results

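The bile and organic anion transporters of the hepatocyte were compared between livers of DUhTP mice and DUC mice. The group was set as 10 genes: the uptake carriers Slc10a1, Slco1a1, Slco1a4, Slco1b2 and Slco2b1, the canalicular exporters Abcb11, Abcb4 and Abcc2, and the basolateral exporters Abcc3 and Abcc6. Every probe set whose single annotated symbol was one of these genes was taken. This gave 15 probe sets of 9 genes, out of 22626 probe sets tested and 12393 genes with a probe set of 1 symbol. Slco2b1 had no such probe set and was not analysed here.

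DUhTP is a Dummerstorf mouse line bred for many generations for high treadmill performance, and DUC is its unselected control line. Both are non-inbred lines derived from one founder population made by crossing outbred and inbred mice. Liver RNA came from untrained males aged 70 days and was hybridised to Affymetrix mouse arrays, with 3 arrays per line. The study's methods describe RNA pools of several mice and the sample labels describe a single mouse, so each array was counted as 1 sample and its SD may rest on pools. DUhTP replicate 2 stood somewhat apart: its correlation with each DUC array was at most 0.952, where the other DUhTP arrays gave 0.956 to 0.963, and its median intensity of 53.1 was the lowest in a range of 53.1 to 57. Each line is 1 closed breeding population, so selection and drift between the lines cannot be told apart.

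Hepatocytes take bile acids and other organic anions from sinusoidal blood and secrete them into the bile canaliculus. Slc10a1 (NTCP) carries conjugated bile acids with sodium, and the Slco (OATP) carriers take up bile acids, bilirubin, steroid conjugates and drugs without sodium. At the canaliculus Abcb11 (BSEP) pumps bile acids, Abcb4 (MDR2) moves phosphatidylcholine into bile, and Abcc2 (MRP2) exports glucuronide and glutathione conjugates. Abcc3 (MRP3) exports conjugates back to blood, and Abcc6 (MRP6), whose loss causes ectopic calcification, is needed for ATP release from the liver.

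The proximal promoters of 5 of these genes are shown. They were picked because exporters on one membrane, and Slco carriers of one gene cluster, read in different directions, mostly without a call. A link between these sequences and the values was not tested. The sequences are from RefSeq with build GRCm38.p6 and give the 250 bases before the annotated start, 5′ to 3′ on the strand of the gene. Abcb4, Slco1b2 and Abcc2 lie on the plus strand, and Abcb11 and Slco1a4 lie on the minus strand. Capitals mark a match to an inverted repeat or to an HNF1-type motif.
Abcb11 chr2:69342617-69342866: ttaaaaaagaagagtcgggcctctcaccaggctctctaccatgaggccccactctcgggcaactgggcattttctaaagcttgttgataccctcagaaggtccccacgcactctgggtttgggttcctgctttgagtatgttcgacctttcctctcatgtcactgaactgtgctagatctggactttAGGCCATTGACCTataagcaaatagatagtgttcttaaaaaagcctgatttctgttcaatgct
Slco1b2 chr6:141629268-141629517: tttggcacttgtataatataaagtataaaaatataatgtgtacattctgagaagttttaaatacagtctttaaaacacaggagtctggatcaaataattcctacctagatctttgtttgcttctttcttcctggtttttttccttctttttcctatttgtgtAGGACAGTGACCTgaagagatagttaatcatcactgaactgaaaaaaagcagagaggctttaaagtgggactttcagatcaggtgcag
Abcc2 chr19:43782058-43782307: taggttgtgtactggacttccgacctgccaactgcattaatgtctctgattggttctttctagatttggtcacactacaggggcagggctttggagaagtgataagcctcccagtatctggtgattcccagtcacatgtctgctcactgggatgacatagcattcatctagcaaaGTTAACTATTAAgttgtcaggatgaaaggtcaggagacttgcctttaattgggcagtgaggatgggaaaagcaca
Slco1a4 chr6:141856221-141856470: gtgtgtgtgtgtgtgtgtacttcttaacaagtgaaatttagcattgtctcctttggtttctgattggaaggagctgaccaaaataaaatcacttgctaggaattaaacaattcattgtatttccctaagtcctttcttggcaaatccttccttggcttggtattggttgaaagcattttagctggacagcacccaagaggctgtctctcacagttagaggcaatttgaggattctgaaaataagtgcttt
Abcb4 chr5:8893471-8893720: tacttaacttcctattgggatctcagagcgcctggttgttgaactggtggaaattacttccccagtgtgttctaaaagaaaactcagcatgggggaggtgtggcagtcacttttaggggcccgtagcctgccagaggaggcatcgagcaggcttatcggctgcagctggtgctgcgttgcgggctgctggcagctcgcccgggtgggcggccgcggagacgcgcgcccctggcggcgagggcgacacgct
The inverted repeat was searched on both strands as AGGNCA, 1 free base and TGACCT, the layout bound by the bile acid receptor FXR, and was found in 2 of 11 promoters of the members, those of Abcb11, from 63 to 51 bases before the start, and Slco1b2, from 88 to 76 bases before it. It was present in 0.0335% of 32851 promoters. The HNF1-type motif was searched on both strands as GTTAA, 2 free bases and ATTAA, and was found in Abcc2 alone among the members, from 75 to 64 bases before the start, and in 0.143% of all promoters. The letters of both motifs were chosen with these promoters in view, so the matches are descriptions of the sequence. Promoters were listed for 8 of the 10 genes, and not for Abcc3 or Abcc6. Every member with a match is among those shown. The listed promoters of Slco1a1, Slc10a1 and Slco2b1 held neither motif and are not shown.

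The signal of Slco1a4, read on 1 probe set, was lower in DUhTP mice, and no other member passed the threshold of an adjusted p under 0.05. This call was lost in most fits that left out 1 array, and with the replicate number as a block (adjusted p = 0.132). Slco1a4 was not among the transcripts that the study checked by qRT-PCR. Abcb4 and Abcc2 read lower and Abcb11 read higher in every DUhTP array than in every DUC array, by FC values below 1.5 in size. FC is the ratio of the lines on the log2 scale turned back to linear, with a minus sign where DUhTP was the lower line. Of the 15 probe sets, 1 was called, against 2.41% of all probe sets, and it was also the only one with FC over 2, against 1.45% of all. At an unadjusted p under 0.05 there were 5 of 15 probe sets, against 21.1% of all. The lines did not overlap for 5 of 15 probe sets, 2 higher and 3 lower in DUhTP, against 29.4% of all. The median log2 difference was 0.28 over the 15 probe sets and -0.06 over the brightest probe set of each gene, beside -0.02 over all probe sets tested. Fewer cells of a type and less RNA per cell cannot be told apart in these bulk samples.

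**Figure D1:**
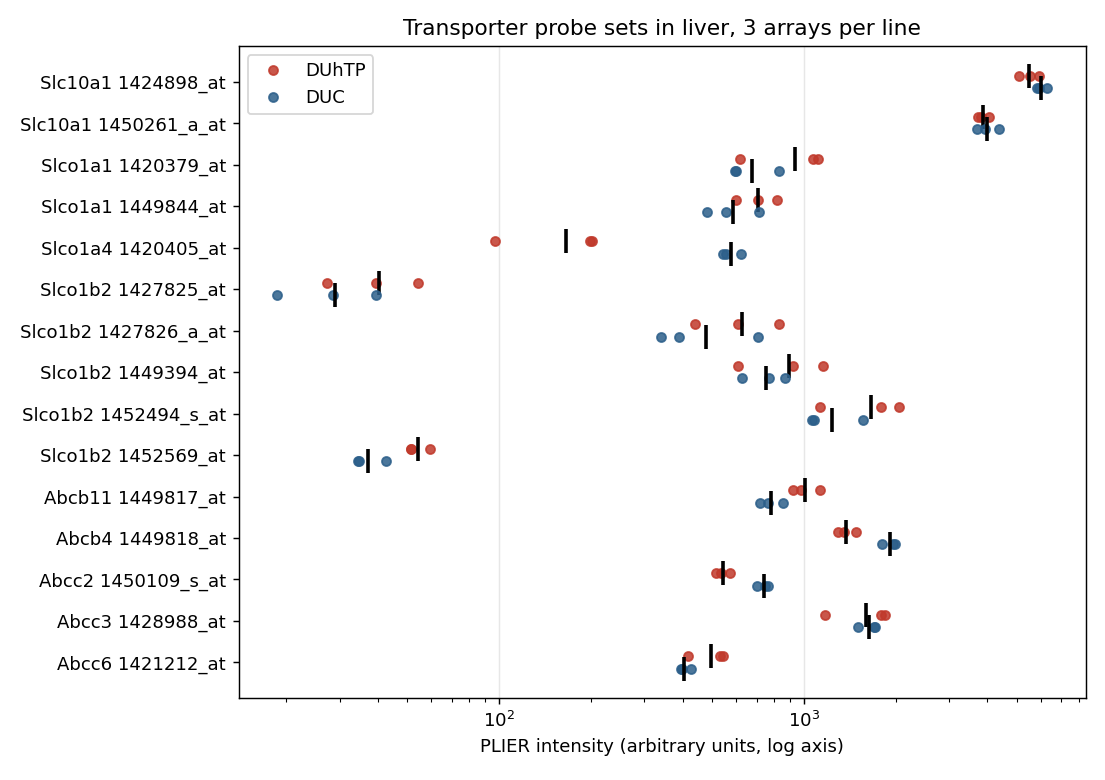
PLIER intensity (arbitrary units, log axis) of each of the 15 transporter probe sets, with 1 point per array, red for the 3 DUhTP arrays and blue for the 3 DUC arrays, and a black tick at the mean of a line. Slco1a4 has all red points left of the blue ones, from 97.2 to 202 against 544 to 623, while Slc10a1 has overlapping points between 3703 and 6278.

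The uptake carriers had 10 probe sets of 4 genes, of which 1 passed the threshold, and their median log2 difference was 0.34 in a range from -1.86 to 0.54. Slc10a1 had the brightest of these probe sets. Its probe set 1424898_at gave 5896, 5516 and 5074 in DUhTP replicates 1, 2 and 3 and 6278, 5820 and 5906 in DUC replicates 1, 2 and 3. The lines overlapped, with a log2 difference of -0.13 (95% interval -0.40 to 0.14, adjusted p = 0.555). The second probe set, 1450261_a_at, gave 3865 ± 159 in DUhTP and 3998 ± 337 in DUC (SD, n = 3), a log2 difference of -0.05 (95% interval -0.33 to 0.23, adjusted p = 0.856). Both intervals leave out a change of 2-fold in either direction. They lay at the 99.2nd and 98.4th percentile of mean intensity over all probe sets.

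Slco1a4 (OATP1A4, also called Oatp2) takes up bile acids and cardiac glycosides such as digoxin. Its probe set 1420405_at gave 199, 97.2 and 202 in DUhTP and 623, 557 and 544 in DUC. Every DUhTP array was below every DUC array, and DUhTP replicate 2 was the lowest of all. The means were 166 ± 59.7 and 575 ± 42.8 (SD, n = 3), with FC -3.64, a log2 difference of -1.86 (SE 0.31, 95% interval -2.62 to -1.11) and adjusted p = 0.0454. The call did not hold in 5 of the 6 fits that left out 1 array, in which the log2 difference was -2.04 to -1.80. Without DUhTP replicate 1 the adjusted p was 0.0913, without DUhTP replicate 3 it was 0.0892, and without DUC replicates 1, 2 or 3 it was 0.143, 0.148 or 0.158. Without DUhTP replicate 2 the log2 difference was -1.52 with adjusted p = 0.0343. With 16 added to each intensity before the log, the difference was -1.76 with adjusted p = 0.00158, and when 1 array was also left out the adjusted p was between 0.00022 and 0.0132.

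Slco1a1 (OATP1A1) carries sulfated and glucuronidated steroids and bile acids, and its gene lies next to Slco1a4. Probe set 1420379_at gave 1072, 617 and 1116 in DUhTP and 830, 598 and 594 in DUC. Replicates 1 and 3 of DUhTP were the highest arrays and replicate 2 fell among the DUC arrays. The log2 difference was 0.44 (SE 0.28, 95% interval -0.25 to 1.13, adjusted p = 0.421). The second probe set, 1449844_at, read 815, 598 and 708 in DUhTP and 713, 555 and 483 in DUC, a log2 difference of 0.28 with adjusted p = 0.46. Without DUhTP replicate 2 the log2 differences of the pair of probe sets were 0.72 (adjusted p = 0.164) and 0.40 (adjusted p = 0.367). The first passed the threshold when 16 was also added, with adjusted p = 0.0315, in a fit that called 1570 of all 22626 probe sets. Leaving out any other array gave 0.29 to 0.60 for the first and 0.16 to 0.44 for the second, with no call, also with 16 added. The log2 difference of Slco1a1 probe set 1420379_at minus that of Slco1a4 was 2.3, from 0.44 and -1.86, with an SD of 0.15 between the arrays of a line. It lay between 2.13 and 2.40 in the settings tried. The exact permutation p, two-sided, was 0.10, the smallest that 3 arrays against 3 allow, and 0.10 after adjustment over the 3 such pairs compared. The pairs were chosen after their values were seen, so this p is no added evidence of a difference between these genes. Slco1a1 by itself overlapped between the lines, and the difference of the pair rests largely on Slco1a4.

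Slco1b2 (OATP1B2), the mouse counterpart of the human OATP1B carriers, takes up unconjugated bile acids and bilirubin glucuronide and had 5 probe sets. The brightest, 1452494_s_at, gave 2045, 1129 and 1796 in DUhTP and 1564, 1060 and 1083 in DUC. Its _s_at ending marks possible matches to other transcripts. The lines overlapped, with a log2 difference of 0.40 (95% interval -0.28 to 1.09, adjusted p = 0.461). The probe sets 1427826_a_at, 1449394_at and 1427825_at gave log2 differences of 0.41, 0.21 and 0.49 with adjusted p of 0.557, 0.702 and 0.49. Of these 1427825_at was dim, with a mean intensity of 34.6. The dim probe set 1452569_at gave 51.4, 59.6 and 51.3 in DUhTP and 42.5, 34.6 and 34.7 in DUC. All 3 DUhTP arrays were above the DUC arrays there, with a log2 difference of 0.54 (95% interval 0.20 to 0.88, adjusted p = 0.107). All 5 differences had the same sign, and probe sets of 1 gene read the same RNA. Without DUhTP replicate 2 that of 1452494_s_at was 0.66 with adjusted p = 0.216, and without any other array it was 0.23 to 0.58. The difference of 1449394_at was 0 without DUhTP replicate 1.

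**Figure D2:**
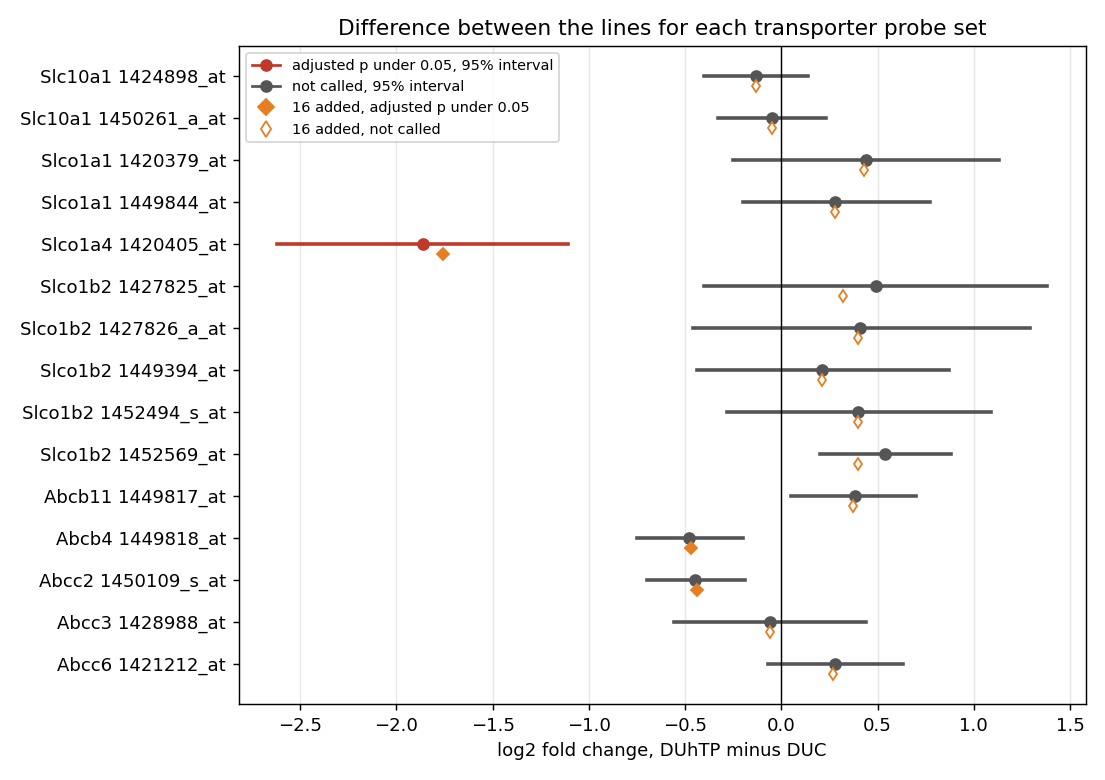
Difference in log2 intensity, DUhTP minus DUC, by transporter probe set, with circles and lines for the estimate and its 95% interval and diamonds for the fit that added 16. Slco1a4 is the one red circle, at -1.86, and the filled diamonds are Slco1a4, Abcb4 and Abcc2, all left of 0.

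The 3 canalicular exporters did not read in one direction. Abcb4 probe set 1449818_at gave 1297, 1359 and 1480 in DUhTP and 1998, 1963 and 1800 in DUC. Every DUhTP array was below every DUC array, with means of 1379 ± 92.7 and 1920 ± 106 (SD, n = 3). The log2 difference was -0.48 (SE 0.11, 95% interval -0.75 to -0.20) with FC -1.39 and adjusted p = 0.0909. Abcc2 probe set 1450109_s_at gave 536, 517 and 573 in DUhTP and 765, 748 and 703 in DUC. These lines did not overlap either, on a probe set whose _s_at ending marks possible matches to other transcripts, and the log2 difference was -0.45 (SE 0.11, 95% interval -0.70 to -0.19) with FC -1.36 and adjusted p = 0.0923.

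Abcb11 probe set 1449817_at gave 925, 978 and 1131 in DUhTP and 764, 856 and 716 in DUC. Each DUhTP array was above each DUC array, with a log2 difference of 0.38 (SE 0.13, 95% interval 0.05 to 0.70), FC 1.30 and adjusted p = 0.19. The log2 difference of Abcb11 minus that of Abcb4 was 0.85 (SD 0.079 between the arrays of a line), and minus that of Abcc2 it was 0.82 (SD 0.10). Across settings these lay between 0.80 and 0.91 and between 0.76 and 0.88. Each had an exact permutation p of 0.10, two-sided, again the smallest possible, and 0.10 after adjustment. The lines did not overlap for any of these genes, with opposite directions within each pair, so this p was fixed once the pairs were picked. It is no added evidence of a difference between the exporters. The median log2 difference of the 3 exporters was -0.45.

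With 16 added, 3 of the 15 transporter probe sets were called, all lower in DUhTP, against 8.62% of all probe sets. These were Slco1a4, Abcb4 with adjusted p = 0.029 and Abcc2 with adjusted p = 0.0347. Abcb11 had an adjusted p of 0.0977 in that fit. Other settings also called members that read higher. Limma-trend, which lets the prior variance follow the intensity, called the same 3 and Abcb11 (adjusted p = 0.0478), against 10.4% of all probe sets. Without the dimmest 33.3% of probe sets the same 3 and Slco1b2 probe set 1452569_at (adjusted p = 0.036) were called, against 12.3% of the probe sets then tested. With 16 added and 1 array left out, the adjusted p ran from 0.0357 to 0.114 for Abcb4 and from 0.0458 to 0.124 for Abcc2.

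Neither basolateral exporter passed the threshold. Abcc3 probe set 1428988_at gave 1795, 1846 and 1173 in DUhTP and 1699, 1713 and 1506 in DUC. DUhTP replicate 3 was the lowest array and replicates 1 and 2 the highest, so the log2 difference of -0.06 (95% interval -0.56 to 0.44, adjusted p = 0.904) lay within the spread of the line. Leaving out 1 array moved it between -0.17 and 0.15. Abcc6 probe set 1421212_at gave 543, 529 and 416 in DUhTP and 396, 397 and 426 in DUC, a log2 difference of 0.28 (95% interval -0.07 to 0.63, adjusted p = 0.323). DUhTP replicate 3 lay below the highest DUC array.

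The Slco probe sets varied together between arrays of the same line. DUhTP replicate 2 was the lowest DUhTP array for 7 of 8 Slco probe sets, against 41.5% of all probe sets, and for 1 of 5 probe sets of the exporters. DUC replicate 1 was the highest DUC array for 7 of 8, against 33.6% of all. Relative to the mean of the line, DUhTP replicate 2 was at -0.70 on the log2 scale for Slco1a4, -0.55 for Slco1a1 probe set 1420379_at and -0.51 for Slco1b2 probe set 1452494_s_at. These 8 probe sets read 3 genes, so they are not independent. In the RefSeq order on chromosome 6, Slco1b2, Slco1a4 and Slco1a1 follow each other with the gene model Gm5724 between the first pair. Their neighbours Slco1c1, Slco1a6 and Slco1a5 were dim, at or below the 19.5th percentile of intensity, and none was called.

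**Figure D3:**
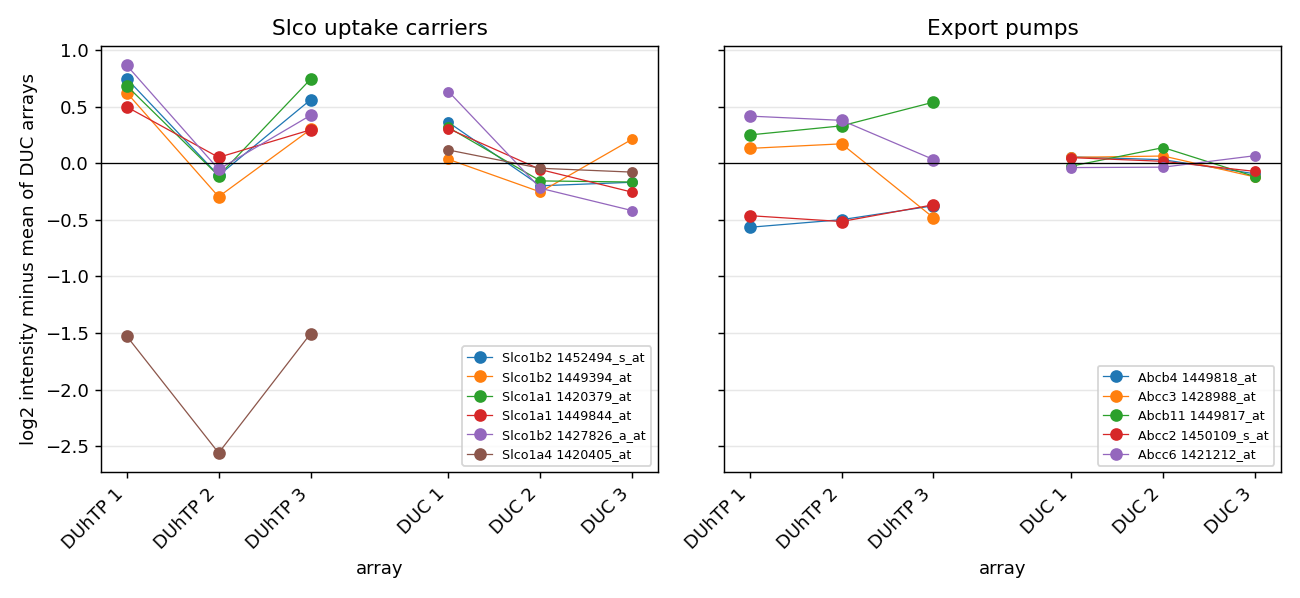
Log2 intensity minus the mean of the DUC arrays in each array for the 6 Slco and 5 exporter probe sets with a mean intensity over 100. Thin lines only join the values of a probe set. In the Slco panel replicate 2 is the lowest of the DUhTP points of each probe set, unlike in the dim Slco1b2 probe set 1452569_at, which is not plotted, and in the exporter panel it is so for 1 of 5.

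Genes that work with these transporters were taken from 6 lists, with 49 of 60 listed genes measured on 85 probe sets. Of these genes 4 were higher and 1 was lower, on 6 of the 85 probe sets, against 2.41% of all probe sets, and the median log2 difference of the 85 probe sets was 0.01. Slc22a7 (OAT2), an organic anion carrier of the sinusoidal membrane, gave 1065, 723 and 542 in DUhTP and 264, 232 and 218 in DUC. All DUhTP arrays were above all DUC arrays, with FC 3.15, a log2 difference of 1.65 (SE 0.26) and adjusted p = 0.0412. Nr0b2 (SHP), a corepressor induced by bile acids through FXR, gave 768, 679 and 766 in DUhTP and 219, 349 and 299 in DUC. It rose with FC 2.60 and adjusted p = 0.0325, while the probe set of Nr1h4 (FXR) itself gave a log2 difference of -0.15 with adjusted p = 0.502.

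Slc9a3r1 (NHERF1), a scaffold that anchors membrane transporters to the cytoskeleton through ezrin and radixin, gave 1637, 1619 and 1350 in DUhTP and 673, 759 and 855 in DUC on probe set 1438115_a_at. It rose with FC 2.02 and adjusted p = 0.0331. Of its other probe sets, 1438116_x_at passed with FC 1.86 and adjusted p = 0.044, and 1450982_at gave FC 1.84 and adjusted p = 0.0668. Ezr (ezrin) fell on the dim probe set 1450850_at, with 30.0, 20.9 and 33.6 in DUhTP and 72.6, 75.9 and 82.7 in DUC, FC -2.79 and adjusted p = 0.0314. Its brightest probe set, 1456725_x_at, gave FC -1.45 with adjusted p = 0.129. Akr1c6, a hydroxysteroid dehydrogenase, was higher with 7627, 7337 and 7894 in DUhTP and 5087, 5073 and 4819 in DUC, FC 1.53 and adjusted p = 0.0449. The calls were mostly lost when 1 array was left out, while the differences kept their direction. Slc22a7 then gave log2 differences of 1.40 to 1.88, Nr0b2 1.19 to 1.53, Slc9a3r1 probe set 1438116_x_at 0.80 to 1.01, Akr1c6 0.58 to 0.64 and Ezr probe set 1450850_at -1.62 to -1.28. Without DUhTP replicate 2 Ezr alone of the 5 genes was still called, with adjusted p = 0.0433, and without any other array none of the 5 was. With 16 added, each kept an adjusted p below the threshold whichever array was left out, between 0.00131 and 0.0436.

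The brightest uncalled genes of the lists gave log2 differences between -0.41 and 0.26. Among uptake carriers, Slc16a1, a lactate carrier, gave a log2 difference of 0.19 (adjusted p = 0.436) and Slco2a1, a prostaglandin carrier, 0.18 (adjusted p = 0.433). Among canalicular genes, Tmem30a, a subunit of phospholipid flippases, gave -0.40 on its brightest probe set (adjusted p = 0.196), with the lines apart. Its probe sets 1416446_at and 1416447_at gave -0.98 and -0.80, also with the lines apart and with adjusted p of 0.133 and 0.177, or 0.0282 and 0.0542 with 16 added. Slc47a1, which extrudes organic cations, gave 0.26 (adjusted p = 0.235). In the basolateral list Abcc5 gave 0.15 (adjusted p = 0.49) and Slc51a, a subunit of the basolateral bile acid exporter, -0.09 (adjusted p = 0.868).

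Of the transcription factors, Hnf4a read lower in DUhTP on all 4 probe sets, and none was called. The brightest, 1427001_s_at, gave -0.41 (adjusted p = 0.116, and 0.0467 with 16 added), and 1427000_at gave -0.66 (adjusted p = 0.059, and 0.00948 with 16 added), both with the lines apart. The _s_at ending of 1427001_s_at marks possible matches to other transcripts. The other 2 gave -0.48 and -0.57 with adjusted p of 0.166 and 0.308. Ppara gave -0.23 (adjusted p = 0.346). Rab11a and Rdx (radixin), of the trafficking list, gave -0.04 and 0.02. The fatty acid binding protein Fabp1 gave 0.25 (adjusted p = 0.249) and Slc27a2, an acyl-CoA synthetase, -0.17 (adjusted p = 0.374). Abcg5 and Abcg8, the canalicular sterol pump, were named after their values were seen. They gave -0.51 and -0.69, with adjusted p of 0.0688 and 0.0666, and 0.019 and 0.0116 with 16 added.

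**Figure D4:**
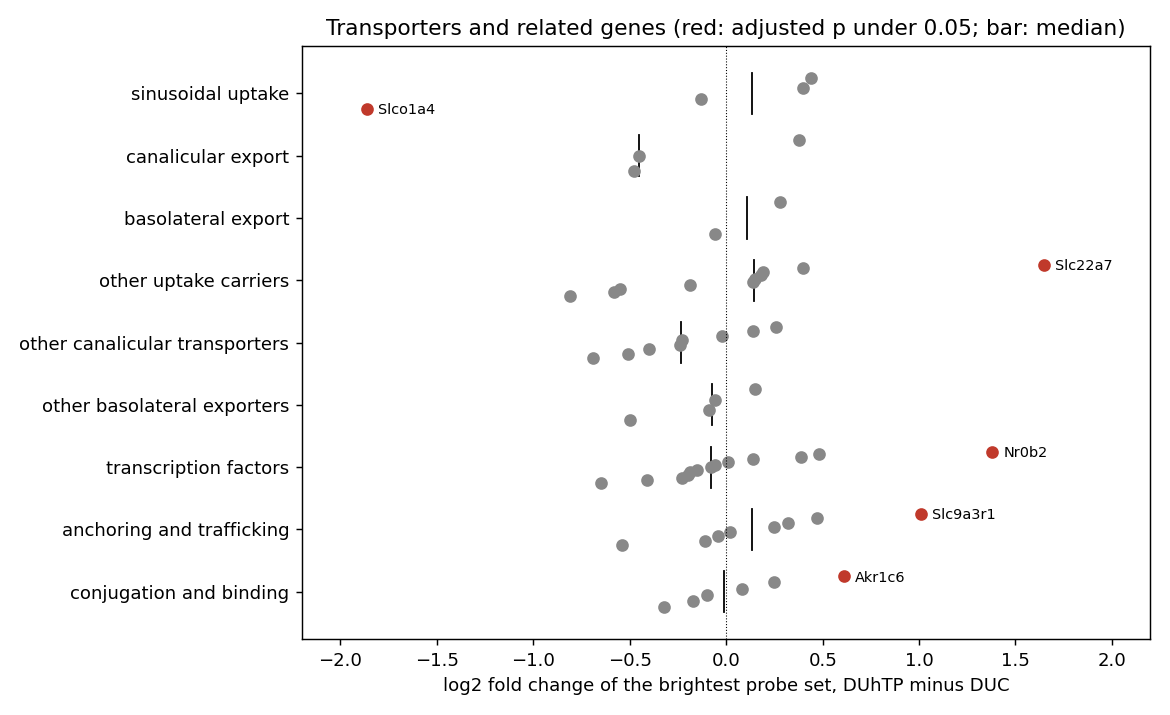
Difference in log2 intensity, DUhTP minus DUC, for the brightest probe set of each transporter and related gene by list, red where the adjusted p was under 0.05, with a bar at the median of a list. Slc22a7 at 1.65 and Nr0b2 at 1.38 lie right and Slco1a4 at -1.86 left, and the called probe set of Ezr is not its brightest and is not plotted.

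Albumin and Apoa1, defining markers of hepatocytes, were among the brightest probe sets in all 6 arrays. On the brightest probe sets, Alb, Apoa1 and Ttr gave log2 differences of -0.03, 0 and 0.07, and Tat, Cps1 and Hnf4a gave -0.88, -0.33 and -0.41. The summed intensity of these 6 hepatocyte markers was 58140 to 60158 in DUhTP and 64461 to 66024 in DUC, and 1 of them, Tat, was called, lower in DUhTP (adjusted p = 0.037). That of 5 cholangiocyte markers was 114 to 151 against 127 to 136, with none called and Cftr near the bottom of the scale. The 6 Kupffer cell markers summed to 2345 to 2731 against 1410 to 1788, with 1 called, Clec4f, higher in DUhTP (adjusted p = 0.032). Marco, of the same list, read lower in every DUhTP array, with FC -1.52 and adjusted p = 0.0778, or 0.0434 with 16 added. The 6 endothelial and stellate cell markers summed to 1066 to 1173 against 836 to 935, with none called. Of these only Stab2 had the lines apart, with means of 674 and 481 and a log2 difference of 0.48 (adjusted p = 0.123). Pecam1, Kdr, Des and Col1a1 overlapped, with 0.06, 0.15, 0.02 and 0 on their brightest probe sets, as did Lrat with -0.43. The 6 exocrine pancreas markers summed to 3364, 942 and 2163 in DUhTP and 3624, 6817 and 5206 in DUC, with none called and DUhTP replicate 2 lowest as for the Slco carriers. Cela1 of that list overlapped between the lines, with a log2 difference of -0.12 (adjusted p = 0.842). At an unadjusted p under 0.05 there were 6 of 9 pancreas probe sets, against 21.1% of all probe sets. The counts were 7 of 8 for Kupffer cells, 5 of 14 for hepatocytes, 1 of 8 for endothelial and stellate cells and 0 of 7 for cholangiocytes. With 16 added, 3 of 14 hepatocyte probe sets were called, all lower, and 0 of 7 cholangiocyte ones. For Kupffer cells 5 of 8 were called, 4 higher and 1 lower, and for endothelial and stellate cells 1 of 8, higher. For exocrine pancreas 4 of 9 were called, all lower, against 8.62% of all probe sets. The part of these shifts in the transporter values was not tested.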

How the data were processed

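Liver RNA of 3 DUhTP and 3 DUC samples was measured on 1-colour arrays. The authors scaled the arrays in GCOS 1.1.1 and deposited PLIER intensity values on a linear scale, whose PLIER version and added constant are not given in the sources used here. Of 22690 rows, 64 control probe sets were left out. Of the other 22626, 20380 had 1 gene symbol in the array annotation, 691 several and 1555 none. Members were read from probe sets with 1 symbol. The log2 intensity was fitted without an added constant in limma 3.58.1 (R 4.3.3) with lmFit and eBayes, unpaired, and p-values were adjusted by Benjamini Hochberg over all 22626 probe sets. Intervals are 95% intervals of that fit, and the script was tested on simulated data in which 200 probe sets differed.

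The members and lists were chosen with earlier results of these data known. All members were named, and of the related lists every called gene and the 2 brightest uncalled genes. The sources differ on whether an array held a pool or a single mouse. The p-values therefore rest on the spread between these arrays, which may be technical. The number of arrays limits the precision, and no arrays were identical. Intensities of different probe sets are not comparable as amounts of RNA.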

Additional observations from a re-analysis of the deposited data

How the results depend on the processing

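The number of transporter probe sets called was 1, and of transporter genes 1, as it was with quantile normalization, array weights and without _x_at and _s_at probe sets. It was 3 with 16 added, 4 without the dimmest 33.3% of probe sets, 4 with limma-trend and 5 at unadjusted p, and it was 0 or 1 when 1 array was left out and 1 to 3 when 16 was also added. The related genes called were 5, and 12, 12, 15 and 19 in those 4 settings, with 0 or 1 when 1 array was left out and 5 to 11 when 16 was also added. Over all probe sets the count was 546, then 1951, 1851, 2350 and 4769, with 327 at FC over 2, 1 to 122 with 1 array left out and 771 to 1591 when 16 was also added. Over the single transporter probe sets and settings, Slco1a4 kept its call in 13 settings and lost it in 6. The probe sets not called stayed so in 253 cases and passed in 11, and 0 called directions turned. Fits with 16 added and 1 array left out, and the differences between pairs of genes, were chosen after seeing the data.

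Same-numbered arrays of the lines deviated together with correlations of 0.00341, 0.0048 and 0.0667. Arrays of unlike number gave -0.0335 to 0.0281, so that of replicates 3 was the highest of all. All were small and gave no clear sign of pairing by number, but 3 arrays per line cannot exclude it. With the replicate number as a block, limma called 0 transporter probe sets, 0 transporter genes, 0 related genes and 0 of all probe sets, with 4 transporter probe sets and 4124 of all at unadjusted p under 0.05. With 3 arrays per line, intervals of about 1 log2 unit or more remained for several members. The cause of the differences between settings was not tested.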
